A study of Gallus gallus with 2 samples.

Results

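Neural ectoderm-1 is a class of cells of the gastrulating chicken embryo, taken at stage HH5 of the Hamburger-Hamilton series. Its members were all cells that carry this name in the authors' deposited annotation, 791 of 7750 cells. They made up 10.2% of the cells (exact 95% binomial interval 9.54 to 10.9%), 31.9% of the 2481 ectoderm cells (30.1 to 33.8%) and 54.2% of the 1459 cells of both neural ectoderm classes (51.6 to 56.8%). The cells came from whole embryos that were dissected in Ringer's solution and dissociated enzymatically. They were processed as 1 preparation by the 10x Multiome protocol, which profiles RNA and open chromatin (ATAC) together in each cell. That preparation gave 1 RNA and 1 ATAC library, both labelled with the antero-posterior axis, and no treatment, genotype or other stage was compared. No cell barcode was listed more than once.

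Neural ectoderm is the part of the outer germ layer that forms the neural plate and later the brain and spinal cord, while nonneural ectoderm gives rise to epidermis and contributes to the placodes. At gastrula stages the neural plate acquires regional identity along the antero-posterior axis, and accessible chromatin marks the regulatory DNA that transcription factors can reach. SOX2 and SOX3, transcription factors of early neural ectoderm, are the usual markers of the tissue. The data used here held no expression values, so the class name could not be checked against these genes and rests on the authors' annotation.

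Each member had an ATAC rank and a position in an embedding. Ranks ran from 1 to 6681, each used once over 13 of the 16 classes, with a middle rank of 3341. The remaining 1069 of the 7750 cells had no rank. Per the file headers the rank is of ATAC, but what was ranked is not given in the sources used here. Nor is it given whether, or in which direction, the rank follows the antero-posterior axis. Ranks are therefore described only as low or high. The embedding is a weighted nearest neighbour UMAP, a plane on which cells with similar RNA and ATAC profiles lie near each other. By its name the embedding draws on the same ATAC data as the rank, so relations between both are descriptions, not links between independent measurements. With 1 preparation there is no replicate error, cells are not replicates, and no difference between classes was tested.

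Neural ectoderm-1 cells lay at the low end of the rank and spread upwards from it. The lowest member ranked 6 and the highest 4026, with a median of 739 (95% binomial interval of the median 695 to 787) and quartiles of 424.5 and 1184.5. Of the members, 80% lay between ranks 228 and 1610, the 10th and 90th percentiles. The distribution had its longer tail towards high ranks, and the mean of 875 (SD 629, n = 791 cells) exceeded the median.

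Members were densest somewhat above the lowest ranks. Each rank is used once, and endoderm cells held 74 of the lowest 100 ranks and 60 of the next 100. The low number of members there and the high number of endoderm cells are therefore not independent of each other. Per interval of 100 ranks, there were 24 members among the lowest 100 ranks, 37 in the next interval and 60 in the one from 201 to 300. The number of members was highest, at 66, from 401 to 500, with 63 and 64 in the intervals on either side. It had declined to 36 from 1001 to 1100. Divided into 10 bins of 668 or 669 ranked cells, bin 1 held 351 members, bin 2 held 290 and bin 3 held 112. Together these 3 lowest bins held 95.2% of the class. Bins 4 and 5 held 19 and 14 members, bin 6 held 4 and bin 7 held 1. None of the 791 members was in the highest 3 bins, which allows a share of up to 0.379%.

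Relative to the other ectoderm, neural ectoderm-1 was shifted to low ranks along its whole distribution. Its upper quartile of 1184.5 lay below the lower quartiles of neural ectoderm-2 (1482.5), nonneural ectoderm-1 (1413) and nonneural ectoderm-2 (1528). In 88.5% of cell pairs the neural ectoderm-2 cell ranked above the neural ectoderm-1 cell, where 50% means no difference in level. The percentage was 87.8% for nonneural ectoderm-1 and 89.1% for nonneural ectoderm-2. The other neural class was thus about as far above neural ectoderm-1 as both nonneural classes were. Of the members, 95.8% ranked below the median neural ectoderm-2 cell, 96.2% below the median nonneural ectoderm-1 cell and 95.95% below the median nonneural ectoderm-2 cell.

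The ectoderm classes nevertheless overlapped on the rank. Of the neural ectoderm-2 cells, 45.8% fell between the 5th and 95th percentiles of neural ectoderm-1 (ranks 150 and 1982), and 54.2% lay above them. In nonneural ectoderm-2 these shares were 43.7% and 56.3%, and in nonneural ectoderm-1 they were 41.2% and 58.8%. No cell of these 3 classes ranked below the 5th percentile of neural ectoderm-1. The lowest cell ranked 150 in nonneural ectoderm-1, 184 in neural ectoderm-2 and 279 in nonneural ectoderm-2. Below these lowest cells lay 40, 53 and 106 members of neural ectoderm-1, respectively. The lowest 100 ranks accordingly held no ectoderm cell other than neural ectoderm-1.

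**Figure D1:**
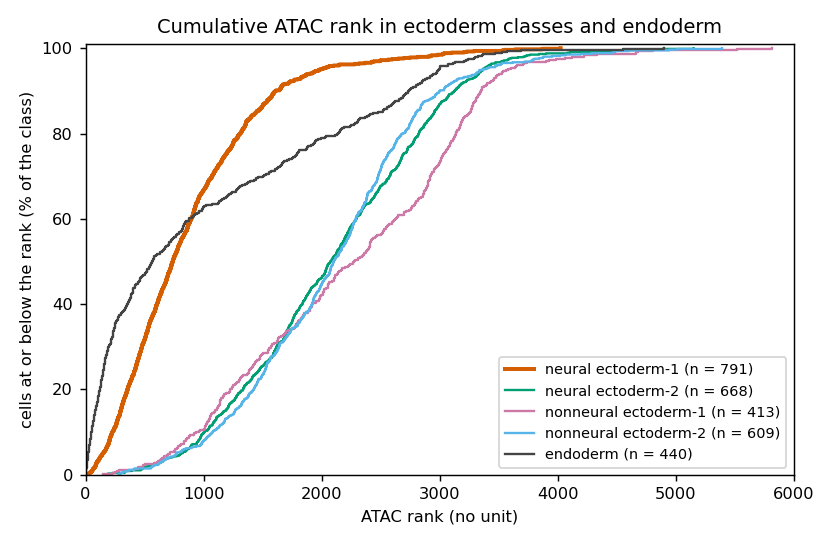
Percent of the cells of a class (vertical axis) at or below each ATAC rank (horizontal axis, no unit) for neural ectoderm-1 (n = 791), the other 3 ectoderm classes and endoderm. The neural ectoderm-1 curve lies left of the other ectoderm curves. It passes the endoderm curve 3 times, the last near rank 909, where 60.7% of both classes had been reached.

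Endoderm, the inner germ layer that forms the gut lining, shared the low end of the rank with neural ectoderm-1 but was spread differently. Endoderm cells were most frequent in the lowest 100 ranks, with 74 cells against 24 of neural ectoderm-1, and numbered 60 against 37 in the next 100. From 201 to 300 the order was the other way, with 32 endoderm and 60 neural ectoderm-1 cells. Of the lowest 50 ranks, endoderm held 44 (88.0%, 95% interval 75.7 to 95.5%) and neural ectoderm-1 held 6 (12.0%, 4.53 to 24.3%). Counted from the lowest rank, both classes had supplied 196 cells by rank 422, and beyond it neural ectoderm-1 outnumbered endoderm. These numbers depend on how many cells of each class were captured. As shares of each class, endoderm was ahead at the lowest ranks, and neural ectoderm-1 passed it for the last time at rank 909, by which 60.7% of both classes had been reached.

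The median of endoderm, 564.5, was lower than that of neural ectoderm-1 (difference -174.5 ranks). Its mean was higher, at 1026 (SD 1051, n = 440 cells), so the order of both classes depended on the summary used. The endoderm cell ranked above the neural ectoderm-1 cell in 45.9% of pairs. Endoderm reached beyond neural ectoderm-1 on both sides. Of the endoderm cells, 107 (24.3%) ranked below the 5th percentile of neural ectoderm-1 and 94 (21.4%) above its 95th percentile. The interquartile range was 760 ranks in neural ectoderm-1 against 1628 in endoderm, and it was 1032 to 1615 in the other ectoderm classes.

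**Figure D2:**
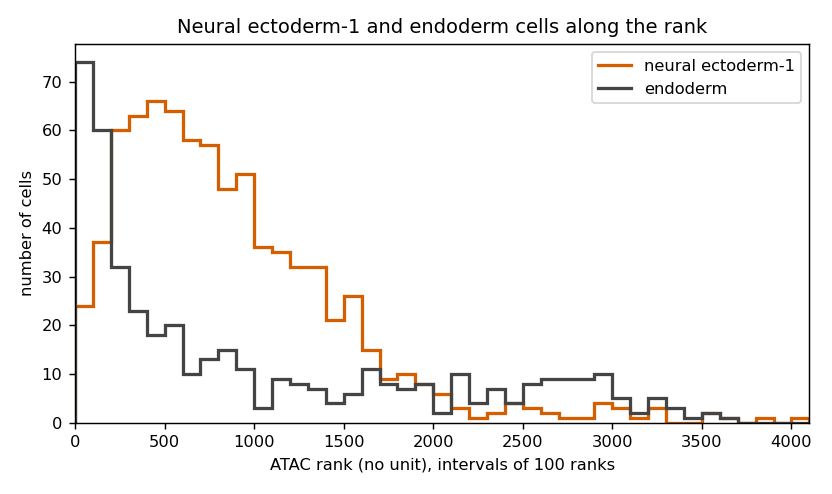
Number of cells (vertical axis) of neural ectoderm-1 and endoderm in successive intervals of 100 ATAC ranks (horizontal axis, no unit, shown to rank 4100). Endoderm is highest in the lowest interval, with 74 cells. Neural ectoderm-1 is highest from 401 to 500, with 66 cells, against 63 and 64 in the intervals on either side.

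In the embedding, neural ectoderm-1 formed a band at the lowest values of the second coordinate, below neural ectoderm-2 and to the lower left of nonneural ectoderm-2. The quartiles of its cells were -6.60 and -5.72 on the second coordinate, against -4.72 and -3.71 for neural ectoderm-2 and -4.80 and -3.68 for nonneural ectoderm-2. On the first coordinate they were -2.66 and -0.90, a range that overlapped with that of neural ectoderm-2 (-3.47 to -1.87) and clear of nonneural ectoderm-2 (0.52 to 1.14). Endoderm was far away, with quartiles of 6.77 and 8.93 on the first coordinate. Neither endoderm nor primitive streak cells were among the 15 nearest cells of any member, whereas neural ectoderm-1 and endoderm shared the lowest ranks. Closeness on the rank and closeness in the embedding therefore differed for this pair of classes.

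Neural ectoderm-1 bordered both neural ectoderm-2 and nonneural ectoderm-2. On average 94.3% of the 15 nearest cells of a member carried its own class name, 2.39% were neural ectoderm-2 and 2.09% were nonneural ectoderm-2. Nonneural ectoderm-1 supplied 0.135%, and mesoderm classes supplied the remaining cells. For 590 members (74.6%) all 15 nearest cells were of their own class, and for 26 members (3.29%) fewer than 8 were. If the classes were made from the profiles that also gave the embedding, this compactness is built in.

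**Figure D3:**
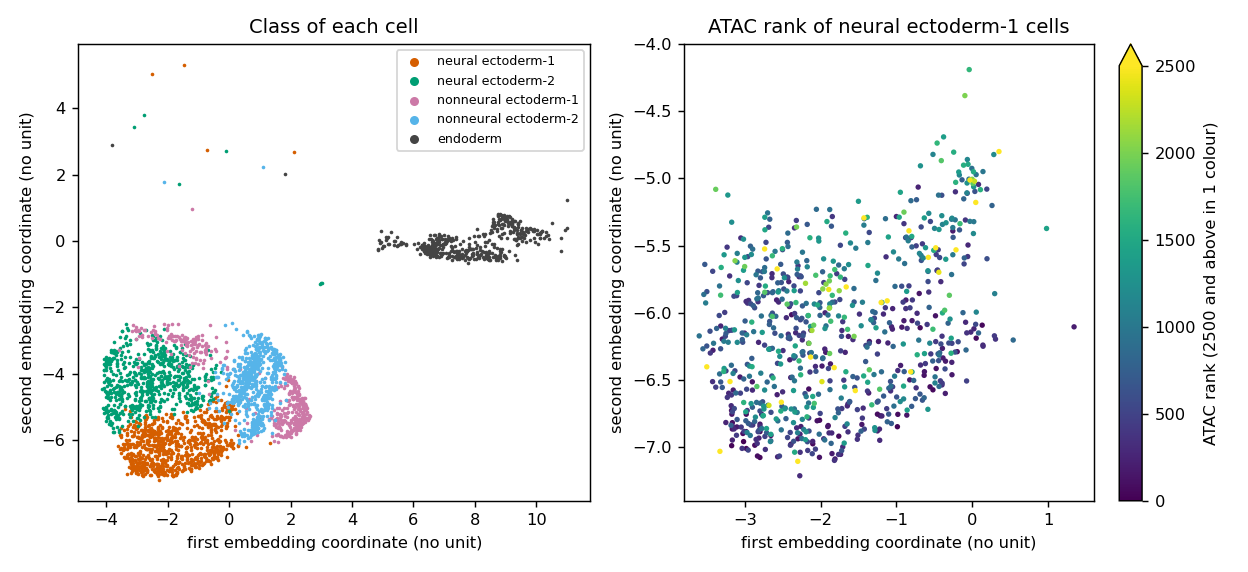
Position of cells on the first (horizontal) and the second (vertical) embedding coordinate, without units. The left panel shows neural ectoderm-1, the other 3 ectoderm classes and endoderm. The right panel shows the main body of neural ectoderm-1 coloured by ATAC rank. Members beyond its axes, among them the 4 above 0 on the second coordinate, are not shown there. The darkest points, with the lowest ranks, are most frequent along the lower edge of the band.

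Across the band, ranks rose with the second coordinate and varied little with the first. Spearman's rho between rank and the second coordinate was 0.33 across 791 cells of 1 preparation, and with the first coordinate it was 0.05. In 10 groups of 79 or 80 members ordered by the second coordinate, the median rank was 408 (quartiles 247.5 and 736) in the lowest group and 1186.5 (quartiles 865.5 and 1566.5) in the highest. The medians did not rise at every step. They lay between 559 and 739 from the second to the seventh group and reached 887 and 1021 in the eighth and ninth. Ordered by the first coordinate, the medians of 10 such groups lay between 607 and 869 with no steady direction.

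The relation to the second coordinate was present along the whole width of the band. Members were divided by the first coordinate into 3 parts of nearly equal number, and rho with the second coordinate was 0.32 in the left part (263 cells), 0.32 in the middle (264 cells) and 0.42 in the right (264 cells). Each part was divided again into 3 by the second coordinate. On the left, the median rank went from 512 in the lowest group to 836.5 in the highest. In the middle it went from 523 to 960. On the right, beside nonneural ectoderm-2, it went from 620.5 over 579 to 1126.5. The band was elongated, with 81.1% of the scatter of its main body along its long axis. The rank followed the short axis (rho = 0.33, 787 cells) more than the long one (rho = 0.09).

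Members far from neural ectoderm-2 in the embedding had lower ranks than members near it. The 787 members of the main body were divided into 4 groups by their distance to the nearest neural ectoderm-2 cell. The median rank was 943.5 in the nearest group, 843 and 595 in the next ones and 530 in the farthest (quartiles 293 and 931). The relation was weaker for the nonneural classes. By distance to nonneural ectoderm-2, the medians of 4 such groups were 850.5, 790, 712 and 624, from near to far. By distance to nonneural ectoderm-1 they were 823.5, 865, 653 and 634, with no steady fall. These distances are in the embedding and do not measure distance in the embryo. Neural ectoderm-2 lay above the band, and distance from it was not separated from height on the second coordinate.

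At the borders, neural ectoderm-1 cells ranked higher than the rest of their class. Both bordering classes lay higher on the second coordinate, along which ranks rose. Whether border cells differ from other members at the same height was not tested. The 81 members with at least 1 neural ectoderm-2 cell among their 15 nearest had a median rank of 1000.0, with quartiles of 687 and 1448. The other 710 had a median of 712.5, with quartiles of 406.5 and 1151.25. The 79 members beside nonneural ectoderm-2 had a median of 1019 (quartiles 659 and 1374), against 713 in the other 712. The quartile ranges overlapped in both cases. The 23 members beside both classes count in both border groups, and each remainder holds members at the other border. The 590 members with only their own class among the 15 nearest had a median of 693, against 923 in the other 201. On the far side of these borders, cells had ranks closer to those of neural ectoderm-1 than the rest of their own class did. Of the neural ectoderm-2 cells, the 72 at this border had a median of 1161.5, whereas the remaining 596 had one of 2189. Of the nonneural ectoderm-2 cells, the 80 at the border had a median of 1442 (quartiles 1078.25 and 1656.75). The remaining 529 had one of 2226, with quartiles of 1687 and 2628, so the quartile ranges were disjoint.

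Among cells on facing sides of a border, the difference between classes was smaller than over whole classes. Such cells were picked by closeness in an embedding that, by its name, draws on the same ATAC data as the rank. Part of the smaller difference may therefore be built in, here and for cells picked at the same height. The neural ectoderm-2 border cell ranked above the neural ectoderm-1 border cell in 58.5% of pairs, compared with 88.5% over all cells. At the border with nonneural ectoderm-2 it was 67.3%, compared with 89.1%. For both of these classes, cells at the same height of the second coordinate, wherever they lay on the first, gave similar values. Between -5.5 and -5, 96 neural ectoderm-1 cells had a median rank of 1009.5 (95% interval 874 to 1173) and 80 neural ectoderm-2 cells had a median of 1105 (987 to 1245). The neural ectoderm-2 cell was the higher in 58.0% of these pairs, and both intervals overlapped. In the same strip, 59 nonneural ectoderm-2 cells had a median of 1342 (1179 to 1486) and ranked higher in 67.1% of pairs. The 105 nonneural ectoderm-1 cells there had a median of 1480 (1332 to 1628) and ranked higher in 73.8%. At the border with that class, with only 6 cells on each side, the nonneural ectoderm-1 cell was the higher in 58.3% of pairs. One strip lower, between -6 and -5.5, neural ectoderm-1 had a median of 849 (191 cells), nonneural ectoderm-1 of 1017 (60 cells) and nonneural ectoderm-2 of 1142 (56 cells).

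The increase of the rank with the second coordinate was less steep inside neural ectoderm-1 than inside neural ectoderm-2. A straight line was fitted to the cells of each class that were not above 0 on the second coordinate. It rose by 319 ranks per unit of the coordinate in neural ectoderm-1 (787 cells) and by 826 in neural ectoderm-2 (664 cells). The neural ectoderm-2 fit still held cells far from the rest of that class, such as one ranked 621 at 2.97 and -1.30. Spearman's rho with the second coordinate was 0.78 in neural ectoderm-2, 0.78 in nonneural ectoderm-1 and 0.75 in nonneural ectoderm-2, against 0.33 in neural ectoderm-1. Over both neural classes together it was 0.76 across 1451 cells. In strips 0.5 wide, the median of neural ectoderm-1 went from 369 in the lowest strip (-7.5 to -7, 23 cells) over 618, 669 and 849 to 1009.5. That of neural ectoderm-2 went on from 1105 over 1520, 2044, 2582 and 2990 to 3345 in its highest strip (-3 to -2.5, 21 cells). Ranks are bounded at 1, and each is used once, so a slope in ranks also depends on how many cells lie in that part of the order.

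**Figure D4:**
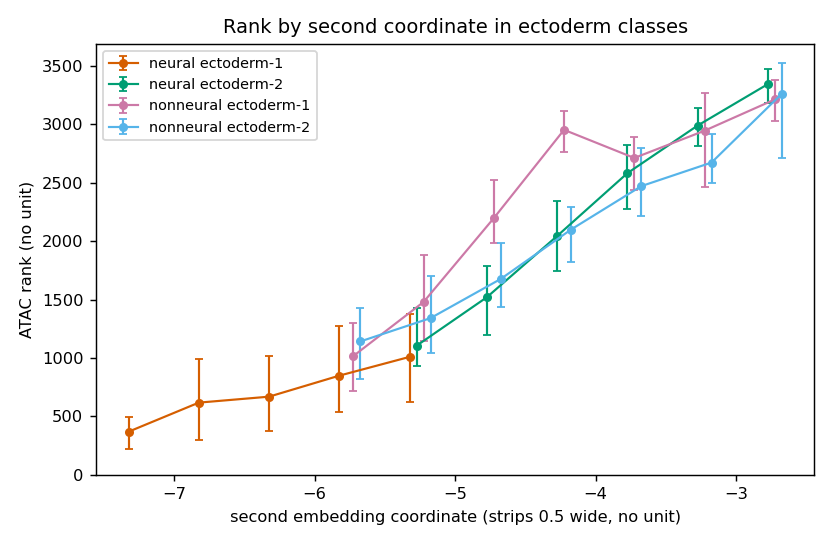
Median ATAC rank (points, vertical axis, no unit) with quartiles (bars) in strips 0.5 wide of the second embedding coordinate (horizontal axis, no unit) for the 4 ectoderm classes. Strips with fewer than 20 cells of a class are left out, and points are set slightly apart for legibility. Neural ectoderm-1 occupies the lowest strips, from 369 to 1009.5, and its highest strip lies at 1009.5 beside the lowest of neural ectoderm-2 at 1105.

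The spread of the rank among neighbouring neural ectoderm-1 cells made up most of the spread over the class. The SD of the rank among the 15 nearest members of a member had a median of 496, which was 78.8% of the SD of the class (629). In the other ectoderm classes this local SD was 449 to 515, or 52.1 to 56.5% of the class SD, and in endoderm it was 464, or 44.2%. With 15 nearest cells the local spread of neural ectoderm-1 was thus within the range of the other ectoderm classes. With 5 it was 424, above the 374 to 407 of those classes and the 334 of endoderm. With 50 it was 571, again within their range of 520 to 593. Its spread over the class was the lowest of the 5 classes compared. Like slopes, spreads in ranks depend on how many cells lie in that part of the order. A fixed number of nearest cells is also a different share of each class, since the classes differ in size. The mean rank of the 15 nearest members accounted for 8.37% of the rank variance in neural ectoderm-1, against 49.6 to 58.4% in the other ectoderm classes and 68.7% in endoderm. This percentage was -2.03% with 5 nearest cells, which is worse than the class mean, and 10.8% with 50. A mean of few cells is imprecise, which lowers this percentage, most with 5 cells and less with 15. The percentages with 15 nearest cells carry this limit too, in every class. Spearman's rho between the rank and the median rank of the 15 nearest members was 0.37 in neural ectoderm-1. The reads behind each rank were not analysed here, so the part that depth per cell has in this local spread was not tested.

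**Figure D5:**
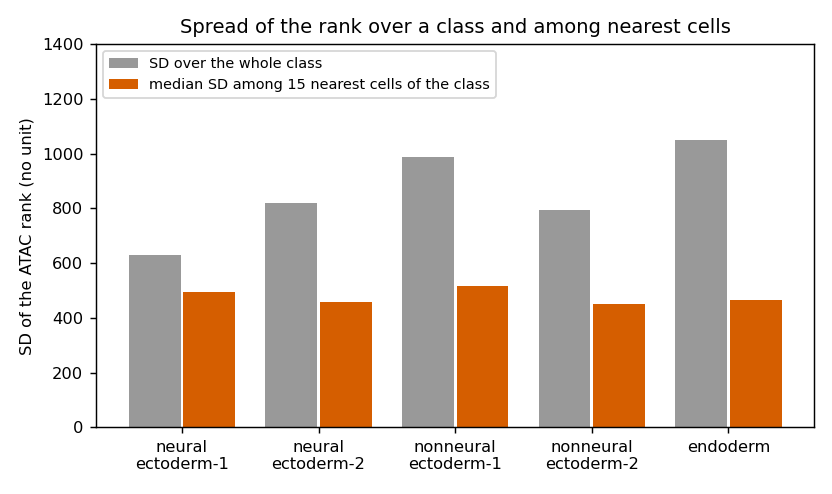
SD of the ATAC rank (vertical axis, no unit) over each class (grey) and its median among the 15 nearest cells of the same class (orange), for the 4 ectoderm classes and endoderm. The orange bars lie between 449 and 515 in all 5 classes, and the grey bar is lowest in neural ectoderm-1, at 629.

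A few members stood apart from the band. Above 0 on the second coordinate lay 4 members, all with none of their own class among their 15 nearest cells. The cell ranked 615 had only mesoderm-5 cells around it, with a median rank of 1475. The cell ranked 2813 lay in mesoderm-2, where 14 of 15 nearest cells had that name and the median rank was 5264. The other two, ranked 3228 and 3547, lay among mesoderm-1 cells with median ranks of 5408 and 4517. All 4 thus ranked below the mesoderm around them, and the last 3 ranked above 97.9 to 99.5% of neural ectoderm-1. Neural ectoderm-2 also had 4 cells above 0, nonneural ectoderm-2 had 2 and nonneural ectoderm-1 had 1. Over the whole of neural ectoderm-1, 6 members had none of their own class among their 15 nearest cells. Some of these therefore lay at or below 0 and stayed in the 787 members used for the axes, distances and fitted line.

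Above the middle rank of 3341 there were 5 members, or 0.632% (95% interval 0.206 to 1.47%), against 38 neural ectoderm-2 cells (5.69%), 44 nonneural ectoderm-1 cells (10.7%), 31 nonneural ectoderm-2 cells (5.09%) and 8 endoderm cells (1.82%). Of these 5 members, 4 lay below 0 on the second coordinate, 3 of them among neural ectoderm-1 cells. The highest, ranked 4026, had 14 nearest cells of its own class, and the median rank around it was 772. The next, ranked 3870, also had 14 of its own class nearby, with a median rank of 762. The cell ranked 3642 was surrounded by neural ectoderm-1 alone, with a median rank of 436. The fourth, ranked 3530, lay at the upper right edge, where 1 of its 15 nearest cells was of its own class and the median rank was 1452. Whether these cells are doublets was not tested, and no doublet caller could be run without the counts.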

How the data were processed

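Whole HH5 chicken embryos, 1 preparation, were read as 1 RNA and 1 ATAC library. The build galGal6 and the tools Signac 1.8.0, Seurat 4.3.0 and Cell Ranger ARC 2.0.0 are named, per the submitters' processing notes. The authors deposited a table of 7750 cells with a class name, a pair of embedding coordinates and an ATAC rank, all treated as scores with no unit. How classes, embedding and rank were made, how cells were filtered and how doublets were treated is not given in the sources used here. Counts per cell were not analysed here, so depth is unknown.

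Members were the cells named neural ectoderm-1. Ranks were summarised by medians, quartiles and pair percentages, and nearest cells were found by Euclidean distance. Intervals are exact (Clopper-Pearson) for shares and from order statistics for medians. The limit for a count of 0 is 3 counts over the total, and like the intervals it covers only counting error. All annotated classes could be named, and genes only where the data held gene values. The class, comparisons and borders were chosen with earlier results of these data known. Alternatives were means, Pearson correlation, 5 or 50 nearest cells, re-ranking over ectoderm and endoderm, and leaving out cells among other classes. The functions for pair percentages, for nearest cells and for the rank variance accounted for by nearest cells were tested on simulated data. Python 3.11.15, pandas 2.3.3, NumPy 2.4.6, SciPy 1.17.1 and matplotlib 3.10.9 were used.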

Additional observations from a re-analysis of the deposited data

How the results depend on the processing

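Of 33 alternative values, 29 stayed within a set limit and kept their sign, 3 moved beyond the limit and 1 changed sign. The limit was the interval of the value, 0.1 for a correlation, or 1 SD of the class for a difference in rank. Intervals of pair percentages and nearest-cell shares are only rough, since pairs and neighbours are not independent counts. For rank differences, 1 SD is a wide limit (629 ranks in neural ectoderm-1). By means, endoderm lay above neural ectoderm-1 by 151 ranks, where by medians it lay below (difference -174.5). The mean rank of neural ectoderm-1 was 875 against a median of 739. Its share was 11.8% with only ranked cells as the denominator. Its median rank stood at 11.1% of all ranked cells and at 24.5% when ectoderm and endoderm alone were ranked, because fewer cells then lay above it. Leaving out the 26 members that sat among other classes gave a median of 726. Leaving out the 4 members above 0 on the second coordinate, a choice made after seeing the data, gave 737. The use of 5 or 50 nearest cells for the border cells was likewise added after seeing the data. No paired analysis was possible because both libraries hold the same cells and the design has no sample groups to compare. Depth per cell was not analysed here, so its relation to the rank is not known.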
